A study of Mus musculus with 3 samples.

Results

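Frizzled receptors are multi-pass membrane proteins that bind WNT ligands through an extracellular cysteine-rich domain and pass the signal to the Dishevelled proteins inside the cell. With LRP5 or LRP6 as co-receptor they stabilize β-catenin, and with partners such as ROR2, VANGL2 and the CELSR cadherins they orient cells in the plane of an epithelium, which is known as planar cell polarity. Mice that lack pairs of related Frizzled genes fail to close the neural tube, and several of these receptors pattern the embryonic face, eye and forebrain.

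All 10 Frizzled genes of the mouse, *Fzd1* to *Fzd10*, were examined among the 24062 gene symbols of the count tables, and were taken by their symbols alone. The counts come from RNA-Seq of the rostrum, the front of the head, of E9 embryos at 18 to 22 somites. Embryos homozygous for *tuft*, a nonsense mutation of the methylcytosine dioxygenase gene *Tet1* that arose in the 3H1 colony, were set against wild-type embryos of the 3H1 Balb background, and the *tuft* embryos had a neural tube closure defect. The RNA of 3 embryos was pooled per genotype into 1 library, so each value below is a single measurement without replicate error. The sample records name 2 *tuft* samples and 1 wild-type sample, and the single *tuft* column of counts could not be assigned to either *tuft* sample. *Tet1* itself had 32 counts in *tuft* against 435 in wild type, which gave a fold change of 0.214 with a 95% counting interval of 0.145 to 0.307.

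Counts on genes summed to 6433067 in *tuft* against 14251942 in wild type, and 11795 genes had a count in *tuft* against 16914 in wild type. Fold changes are *tuft* over wild type after scaling by the trimmed mean of M-values (TMM), and each interval is an exact Clopper-Pearson interval that covers counting error only, because reads carried no molecular identifiers and the spread between pools was not measured. A gene was called higher or lower when this whole interval lay above 2-fold or below 0.5-fold. Calls were common between these libraries. Of 13979 genes that reached 10 counts when both libraries were added, 17.4% were called higher in *tuft* and 29.8% lower, so that 36.8% of the calls were higher, or 24.7% when scaled by library totals alone. Of the marker lists for the labelled tissue, 8 forebrain genes summed to 658 CPM (counts scaled to 1000000 counts on genes) in *tuft* against 694 in wild type, and 6 genes of head mesenchyme and neural crest to 466 and 194 CPM. The 5 primitive red cell genes summed to 35525 and 3192 CPM, mostly from *Hbb-y* and *Hba-x*, while *Hbb-bh1* had a fold change of 1.08 (1.04 to 1.11) and *Alas2* was called lower at 0.215 (0.148 to 0.304). The 6 visceral yolk sac genes summed to 215 and 1453 CPM, the 4 endothelial genes to 49.3 and 233 CPM, and the 5 surface ectoderm genes to 768 and 592 CPM. These sums are not TMM-scaled, and with TMM the forebrain sum had a fold change of 1.25. Genes within a list also went apart. Forebrain had 1 called higher (*Six3*) and 2 lower (*Rax*, *Hesx1*), and surface ectoderm 1 higher (*Krt8*) and 1 lower (*Cdh1*). Neural crest had 2 higher (*Sox10*, *Twist1*), 0 lower and 4 not called. In *tuft*, 1 marker in each of the forebrain (*Hesx1*), neural crest (*Foxd3*), endothelial (*Pecam1*) and yolk sac (*Apoa4*) lists had no count. The part of these cell types in the Frizzled values was not tested. With pooled tissue, fewer cells of a type and less RNA per cell cannot be told apart.

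All 10 Frizzled genes were detected in both libraries, with 70 to 1353 counts in *tuft* and 175 to 2449 in wild type, and all 10 passed the minimum of 10 counts. *Fzd1*, *Fzd9* and *Fzd3* were called higher in *tuft* and no Frizzled gene was called lower. These 3 of 10 stand beside the 17.4% of all tested genes called higher, and the 0 of 10 beside the 29.8% called lower. Among the 7759 genes with wild-type counts between the lowest and the highest Frizzled gene, 16.8% were called higher and 27.5% lower. With at least 10 counts required in each library, which all 10 Frizzled genes had, 22.7% of 9986 genes were called higher and 17.7% lower. The median log2 fold change was -0.22 over the Frizzled genes, -0.21 over those 7759 genes and -0.46 over all tested genes. Scaling by library totals alone shifts every log2 fold change down alike, and the median over all tested genes was then -0.85 and that of the Frizzled genes -0.62. Under it *Fzd1* and *Fzd9* were called higher and *Fzd4* and *Fzd8* lower.

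**Figure D1:**
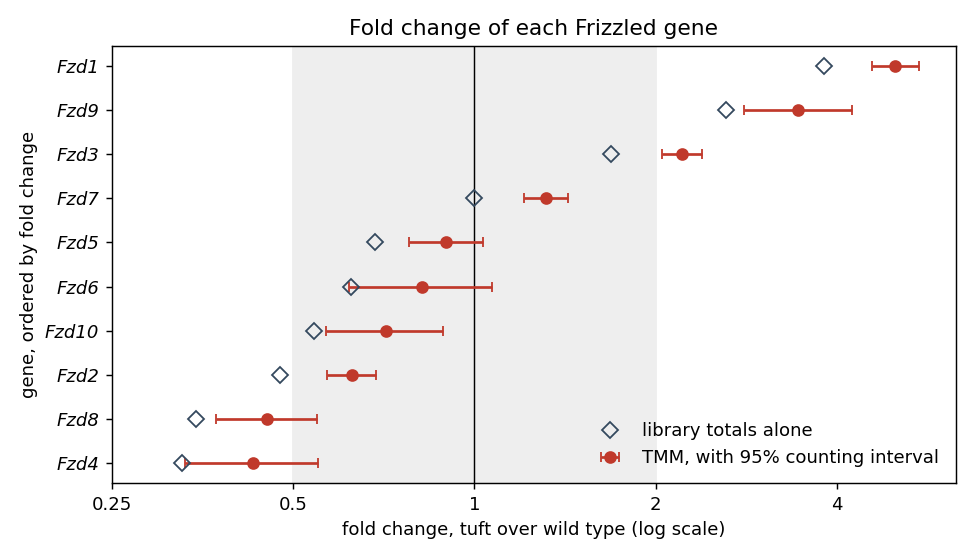
Fold change of each Frizzled gene, *tuft* over wild type, on a log axis. Filled points give the TMM-scaled value with its 95% counting interval, open diamonds the value with library totals alone, and the grey band the range from 0.5 to 2. The intervals of *Fzd1*, *Fzd9* and *Fzd3* lie wholly to the right of the band, and no interval lies wholly to its left.

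The transcripts of *Fzd1*, *Fzd2* and *Fzd7* encode the most closely related receptors of the family, which act in both β-catenin and polarity signaling and have overlapping roles in closure of the neural tube and palate. *Fzd1* (chromosome 5 of GRCm38, the mm10 build of the counts, 4753839 to 4758216) had 1353 counts in *tuft* against 787 in wild type, with 2.22 times as many counts on genes in wild type. It was the Frizzled gene with the most counts in *tuft*, and its fold change of 5.01 (4.58 to 5.47) was the highest of the family. Of the 7759 genes with like wild-type counts, 297 (3.83%) had a fold change at least as high as that of *Fzd1*.

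*Fzd2* (chromosome 11, 102604431 to 102608058) had 526 counts in *tuft* against 2449 in wild type, where it was the Frizzled gene with the most counts. Its fold change was 0.625 (0.568 to 0.687), an interval below 1 but within the 2-fold limit. *Fzd7* (chromosome 1, 59482147 to 59486955) had 808 counts in *tuft* against 1790 in wild type, which gave a fold change of 1.31 (1.21 to 1.43) that became 1.00 (0.919 to 1.09) with library totals alone. The 3 genes together had 2687 and 5026 counts and took 57.2% of all Frizzled counts in *tuft* against 52.7% in wild type. What differed was the mix within this subfamily. There were 2.57 *Fzd1* counts per *Fzd2* count in *tuft* against 0.321 in wild type, a ratio that was 8.004 times as high in *tuft* (7.02 to 9.12). Such a ratio between genes of the same libraries does not depend on the scaling. The ratio of *Fzd1* to *Fzd7* was 3.81 times as high in *tuft* (3.37 to 4.31) and that of *Fzd7* to *Fzd2* 2.10 times (1.85 to 2.39).

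*Fzd3* and *Fzd6* encode the receptors best known for planar cell polarity, and mice without both have an open neural tube. *Fzd3* (chromosome 14, 65192441 to 65262463) had 1170 counts in *tuft* against 1538 in wild type, which gave a fold change of 2.22 (2.05 to 2.39). This call was the closest to its limit. It was lost with library totals alone, at 1.69 (1.56 to 1.82), and with upper-quartile scaling, at 2.14 (1.98 to 2.31). *Fzd6* (chromosome 15, 39006149 to 39038192) had the lowest level per length in both libraries, with 70 counts in *tuft* against 249 in wild type. The interval of this level overlapped that of *Fzd4* in *tuft* and that of *Fzd9* in wild type. For *Fzd6* the fold change of 0.819 (0.619 to 1.07) was not separated from 1 by counting error. *Fzd3* had 16.7 counts per *Fzd6* count in *tuft* against 6.18 in wild type, 2.71 times as many (2.04 to 3.62).

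*Fzd5* and *Fzd8* encode a pair of related receptors of the early forebrain and eye. *Fzd5* (chromosome 1, 64730558 to 64737750) had 263 counts in *tuft* against 852 in wild type, which gave a fold change of 0.899 (0.780 to 1.03). *Fzd8* had 125 and 804 counts, and its fold change of 0.453 (0.372 to 0.547) was under 0.5 while its interval was not. The genes had nearly equal counts in wild type, 1.06 *Fzd5* counts per *Fzd8* count, against 2.10 in *tuft*, which is 1.99 times as high (1.56 to 2.53). Together they took 8.27% of the Frizzled counts in *tuft* against 17.4% in wild type.

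*Fzd4*, *Fzd9* and *Fzd10* form the remaining branch. *Fzd4*, whose product binds Norrin as well as WNTs and is required in blood vessels of the retina, lies on chromosome 7 (89404366 to 89410110). It had 72 counts in *tuft* against 489 in wild type, and its fold change of 0.429 (0.330 to 0.550) was the lowest of the family, short of a call by its interval. Of the 4 endothelial markers, 3 were called lower in *tuft*: *Cdh5* had 161 and 1376 counts, *Kdr* 117 and 1237, and *Pecam1* 0 and 443. The other, *Tek*, had 39 and 262 counts, 0.433 (0.301 to 0.608). Their part in the *Fzd4* value was not tested. *Fzd4* also overlaps *Tmem135*, with 298 counts in *tuft* against 249 in wild type, and reads of the overlap can be lost or misplaced since whether counting used strand is not given in the sources used here.

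*Fzd9* (chromosome 5, 135248938 to 135251047) had 207 counts in *tuft* against 175 in wild type. It had the fewest counts of the family in wild type, and its fold change of 3.44 (2.80 to 4.24) was second to that of *Fzd1*. *Fzd10* (chromosome 5, 128601106 to 128604093), which is expressed in the dorsal neural tube, had 100 and 409 counts, giving a fold change of 0.712 (0.566 to 0.888). The ratio of *Fzd9* to *Fzd4* was 8.03 times as high in *tuft* (5.77 to 11.2), that of *Fzd9* to *Fzd10* 4.84 times (3.56 to 6.59) and that of *Fzd10* to *Fzd4* 1.66 times (1.18 to 2.35). The sum of the branch was 379 counts in *tuft* against 1073 in wild type, with a fold change of 1.03 (0.912 to 1.16) with TMM and 0.783 (0.694 to 0.881) with library totals alone.

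**Figure D2:**
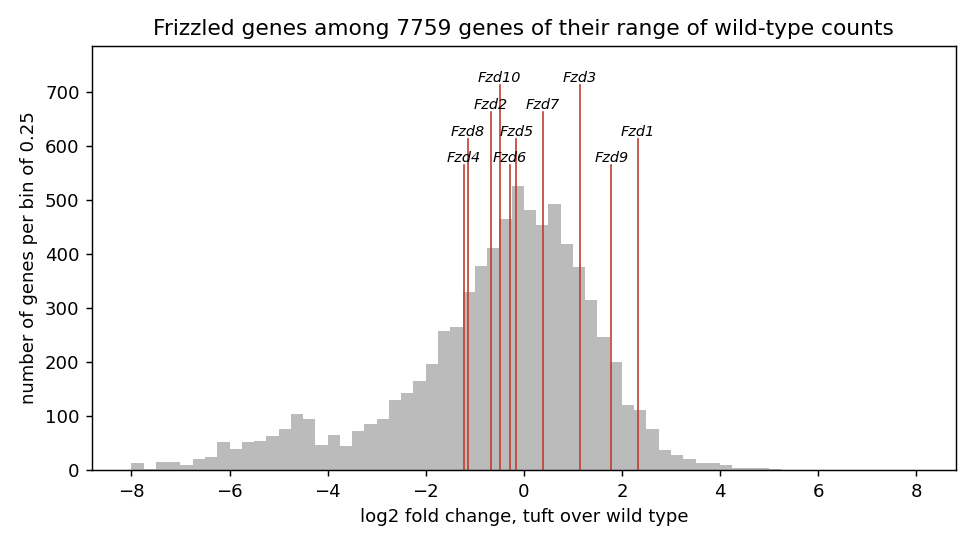
Histogram of log2 fold changes, *tuft* over wild type, of the 7759 genes with 175 to 2449 counts in wild type, in bins of 0.25, with genes at 0 in *tuft* set to 3 counts. Red lines mark the 10 Frizzled genes, which lie from -1.22 (*Fzd4*) to 2.32 (*Fzd1*), and none lies below the lower quartile of the other genes, -1.50.

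The spread of fold changes among the Frizzled genes was not wide for these libraries. The median size of the log2 fold change was 0.91 over the 10 genes, against 1.08 over the 7759 genes of like wild-type counts and 1.29 over all tested genes. No Frizzled gene was without a count in *tuft*, whereas 290 (3.74%) of the 7759 genes were. By the counting interval alone, 4 Frizzled genes lay above a fold change of 1, 4 below it and 2 (*Fzd5* and *Fzd6*) could not be told from it. By the same rule 34.5% of all tested genes lay above 1 and 52.2% below it, and of the 7759 genes 38.9% and 49.4%, so an interval that leaves out 1 was common in these libraries.

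Shares of the counts on the family also do not depend on the scaling between libraries. Frizzled genes held 4694 counts in *tuft* against 9542 in wild type. *Fzd1* made up 28.8% of them in *tuft* (27.5% to 30.1%, Clopper-Pearson) and 8.25% in wild type (7.70% to 8.82%). *Fzd2* made up 11.2% (10.3% to 12.1%) and 25.7% (24.8% to 26.6%). *Fzd3* held 24.9% and 16.1%, and *Fzd9* 4.41% and 1.83%. *Fzd7* held 17.2% (16.1% to 18.3%) and 18.8% (18.0% to 19.6%), with overlapping intervals, and *Fzd6* 1.49% (1.16% to 1.88%) and 2.61% (2.30% to 2.95%). The shares of the other genes depend on that of *Fzd1*. Without *Fzd1* among the counts, *Fzd7* held 24.2% in *tuft* and 20.4% in wild type, and *Fzd6* 2.10% and 2.84%. Differences past counting error were the rule for genes of like counts, so these shares describe the family and set it apart from no other group of genes.

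**Figure D3:**
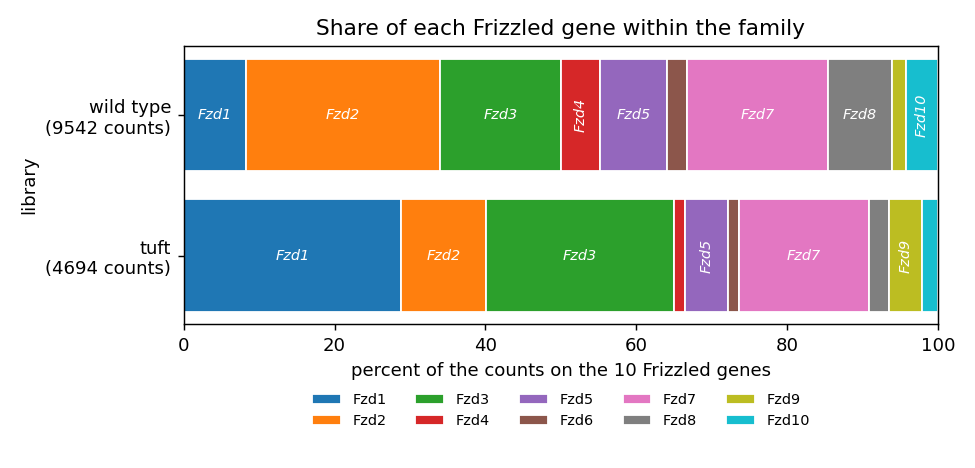
Percent of the counts on the 10 Frizzled genes that fell on each gene, in wild type (9542 counts) and *tuft* (4694 counts). The *Fzd1* segment widens from 8.25% in wild type to 28.8% in *tuft*, and the *Fzd2* segment narrows from 25.7% to 11.2%.

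The summed level of the family differed less between the libraries than that of *Fzd1* or *Fzd9*. All 10 genes together had 730 CPM in *tuft* and 670 CPM in wild type, which gave a fold change of 1.43 (1.38 to 1.48) with TMM and 1.09 (1.05 to 1.13) with library totals alone. This sum rests on *Fzd1*. Without it, the other 9 genes had a fold change of 1.11 (1.07 to 1.16) with TMM, which turned to 0.845 (0.812 to 0.880) with library totals alone.

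Levels of different genes were compared as counts per 1000 bases of exon and per 1000000 counts on genes (RPKM), with exon lengths from 2293 bases for *Fzd9* to 6912 bases for *Fzd5*. In wild type *Fzd2* led with 47.4 RPKM, followed by *Fzd7* (26.2 RPKM) and *Fzd3* (25.5 RPKM), whose intervals overlapped, and then by *Fzd8* (16.9 RPKM) and *Fzd1* (12.6 RPKM). *Fzd4*, *Fzd10* and *Fzd5* followed at 9.31, 8.83 and 8.65 RPKM, with overlapping intervals between neighbours, and *Fzd9* (5.36 RPKM) and *Fzd6* (4.28 RPKM) closed the order with intervals that overlapped as well. In *tuft* the first places went to *Fzd1* (48.1 RPKM) and *Fzd3* (43.0 RPKM), which were not set apart by counting error. *Fzd7* (26.2 RPKM) and *Fzd2* (22.5 RPKM) overlapped too, *Fzd9* stood alone at 14.03 RPKM, and the remaining genes had from 5.91 RPKM for *Fzd5* to 2.67 RPKM for *Fzd6*. *Fzd1* thus stood in place 5 in wild type and place 1 in *tuft*, *Fzd9* in places 9 and 5, and *Fzd2* in places 1 and 4. From the highest to the lowest gene the levels spanned 11.1-fold in wild type and 18.0-fold in *tuft*. These levels are not TMM-scaled, so they serve to order genes within a library.

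**Figure D4:**
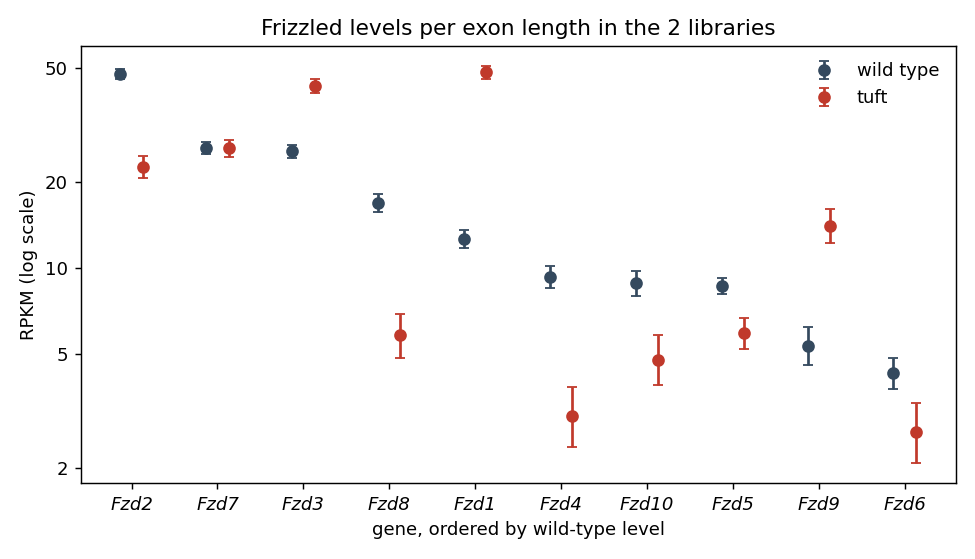
Level of each Frizzled gene in RPKM on a log axis, with the 95% counting interval, in wild type (dark) and *tuft* (red), ordered by the wild-type level. *Fzd1* goes from 12.6 to 48.1 RPKM and *Fzd2* from 47.4 to 22.5 RPKM, while *Fzd7* stands at 26.2 RPKM in both. RPKM is not TMM-scaled. With TMM the fold changes of *Fzd1*, *Fzd2* and *Fzd7* were 5.01, 0.625 and 1.31.

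Reads of related receptors could in principle be exchanged between genes. In the GENCODE M1 transcripts of NCBIM37 (an older build, used here for sequence and length only), 4.98% of the windows of 20 bases of *Fzd1*, 6.01% of those of *Fzd2* and 2.76% of those of *Fzd7* also occurred in another Frizzled transcript. The longest run of bases shared by any pair was 47, between *Fzd1* and *Fzd2* and between *Fzd1* and *Fzd7*, and no window of 50 bases was shared. Transcript GC content ranged from 43.7% (*Fzd3*) to 62.2% (*Fzd9*), and Spearman's rho between GC content and fold change was -0.03 across the 10 genes, a description over genes of the same libraries.

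TET1 oxidizes methylated cytosines at CpG dinucleotides and binds CpG-rich promoters, so the promoter letters of the Frizzled genes with the highest and the lowest fold change are shown, with each CpG in capitals. They are the 250 bases before the RefSeq start site, 5′ to 3′ on the coding strand, at chr5:4758217-4758466 (minus strand) for *Fzd1* and chr7:89404116-89404365 (plus strand) for *Fzd4* in GRCm38.p6. No methylation was measured in these libraries.

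Fzd1: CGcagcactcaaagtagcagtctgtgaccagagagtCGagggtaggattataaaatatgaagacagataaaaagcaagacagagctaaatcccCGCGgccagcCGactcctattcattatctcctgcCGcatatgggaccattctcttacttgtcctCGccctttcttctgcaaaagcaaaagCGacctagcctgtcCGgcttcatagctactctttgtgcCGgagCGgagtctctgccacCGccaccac
Fzd4: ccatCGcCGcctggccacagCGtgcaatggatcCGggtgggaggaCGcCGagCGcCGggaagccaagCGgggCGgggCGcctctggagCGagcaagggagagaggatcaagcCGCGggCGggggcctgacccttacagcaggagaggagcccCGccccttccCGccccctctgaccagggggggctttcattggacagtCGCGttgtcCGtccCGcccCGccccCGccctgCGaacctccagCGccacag

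The *Fzd1* window held 12 CpGs at 51.2% GC, and 67.1% of the 10387 tested genes with a window in the table (the first listed per gene) had at least as many. The *Fzd4* window held 25 CpGs, a number that 20.2% of the genes reached. The promoter table matched 6 Frizzled genes, and the others ranged from 17 CpGs for *Fzd7* to 42 for *Fzd9*, with 32 for *Fzd5* and 37 for *Fzd10*. The Frizzled genes with the 2 highest fold changes, *Fzd1* and *Fzd9*, thus had the fewest and the most CpGs of the 6.

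The genes that act directly with Frizzled receptors were examined as lists. Of 67 different genes tested in 8 lists, 13 were called higher in *tuft* and 23 lower, which is 19.4% and 34.3% beside the 17.4% and 29.8% of all tested genes. No count was found in *tuft* for 15 of the 67 (22.4%), beside 2609 (18.7%) of all tested genes.

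Of 16 WNT ligand genes tested, 5 were called higher and 5 lower, with a median log2 fold change of -0.86. *Wnt5a*, the ligand best known for polarity signaling through FZD and ROR2, had 597 counts in *tuft* against 463 in wild type, which gave a fold change of 3.75 (3.32 to 4.25). *Wnt10b* had the highest fold change, from 27 and 2 counts, 39.3 with an interval from 9.88 to 341. *Wnt9a*, from 1 and 74 counts, had 0.0394 (0.000983 to 0.226), the lowest of the ligands with a count in *tuft*, and 6 ligands had none.

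Of 9 co-receptor genes tested, 1 was called higher and 4 lower. *Tspan12*, which encodes the FZD4 partner in Norrin signaling, had 567 counts in *tuft* against 205 in wild type, which gave a fold change of 8.05 (6.85 to 9.50), whereas *Fzd4* itself had the lowest value of its family. *Ror1* had no count in *tuft* against 177 in wild type, 20.3-fold lower with the 0 taken as 3 counts. The exact interval allowed a fold change of up to 0.0613. *Ror2* had 790 and 1153 counts, giving a fold change of 2.00 (1.82 to 2.19) without a call.

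The secreted Frizzled-related proteins carry a Frizzled-like cysteine-rich domain and bind WNTs outside the cell. Of their 5 genes, *Sfrp2* was called higher, with 1345 counts in *tuft* against 1597 in wild type and a fold change of 2.45 (2.28 to 2.64), and none was called lower. In the wider list of 10 tested genes with such a domain, which includes them, *Sfrp2* was again the gene called higher and *Ror1* the one called lower. *Smo*, the Hedgehog signal transducer of the same receptor class, had 2768 and 4804 counts, giving a fold change of 1.68 (1.60 to 1.76).

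The ubiquitin ligases ZNRF3 and RNF43 remove Frizzled receptors from the cell surface, and R-spondins with LGR receptors hold them back. Of 8 such genes tested, 1 was called higher and 4 lower. *Znrf3* had 4 counts in *tuft* against 397 in wild type, which gave a fold change of 0.0293 (0.00795 to 0.0757). *Rnf43* had none and 65 counts, at least 7.44-fold lower against the same floor, with an interval up to 0.170. *Rspo4* was the gene called higher, with 61 and 10 counts, 17.8-fold (9.03 to 38.9).

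Inside the cell, 2 of 10 genes of Dishevelled and its binding partners were called higher and 5 lower. The Dishevelled genes went apart. *Dvl2* had 1649 counts in *tuft* against 1395 in wild type, which gave a fold change of 3.44 (3.20 to 3.70), and was called higher. *Dvl3* had 132 and 952 counts, 0.404 (0.334 to 0.485), and was called lower. *Dvl1*, with 176 and 1063 counts, had 0.482 (0.409 to 0.566) without a call. *Nkd1*, a Dishevelled antagonist and itself a β-catenin target, had the highest fold change of the list, 3.61 (3.25 to 4.01), and *Nkd2* had 0.0247 (0.00297 to 0.0901) from 2 and 236 counts. *Dact1*, with none and 222 counts, had an interval up to 0.0488, so the order of these at the low end is not set.

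Among 10 core planar cell polarity genes, 2 were called higher and 5 lower. *Prickle2* had 280 counts in *tuft* against 157 in wild type, the highest fold change at 5.19 (4.26 to 6.36). *Vangl1* had no count in *tuft* against 444 in wild type, 50.8-fold lower with the 0 taken as 3 counts. Its exact interval allowed a fold change of up to 0.0243. *Vangl2*, its partner in the polarity complex, had 97 and 865 counts, 0.327 (0.262 to 0.403). *Celsr2*, the other gene called higher, had 1820 and 1726 counts, 3.07 (2.87 to 3.28). *Celsr1*, with 352 and 1730 counts, had 0.592 (0.527 to 0.665) without a call. By quantitative PCR (qPCR) of single embryos, the paper found no consistent change of *Dvl2*, *Prickle2* or *Vangl2*. In some *tuft* embryos it found *Celsr1* or *Celsr2* raised. Of 10 β-catenin target genes tested, 2 were called in each direction and 6 were not called. *Sp5* had the highest fold change, 8.43 (6.85 to 10.4), from 356 and 123 counts. *Znrf3* and *Rnf43* are on this list as well, and *Axin2*, a general readout of the pathway, had 195 and 1131 counts, 0.502 (0.429 to 0.585).

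**Figure D5:**
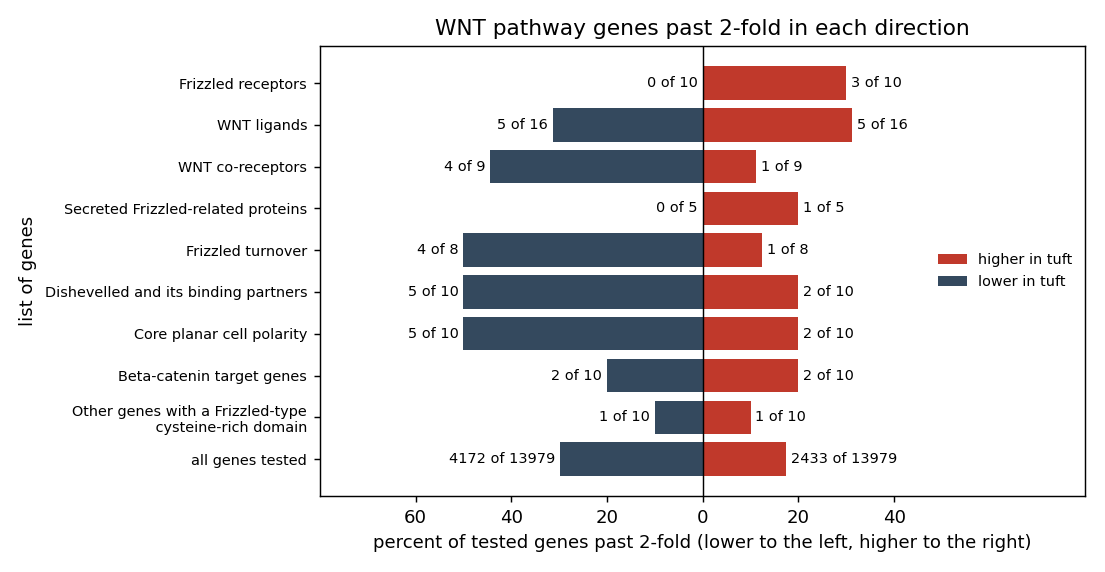
Percent of the tested genes of each list called higher (right) or lower (left) in *tuft*, with the counts of genes beside each bar, for the Frizzled receptors, 8 lists of WNT pathway genes and all tested genes. Frizzled receptors have 3 of 10 genes called higher and 0 called lower, against 17.4% and 29.8% of all tested genes.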

How the data were processed

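Raw read counts per gene symbol, as deposited by the authors, were used without change. The authors trimmed single-end Ion Proton reads of poly-A-selected RNA with PRINSEQ, keeping reads of 20 bases or more, aligned them to mm10 with TopHat2 2.0.14 on Bowtie2 2.2.5 (SAMtools 0.1.18) and counted with htseq-count. On genes fell 27.4% of the *tuft* entries and 37.3% of the wild-type ones, while 59.2% and 51.4% were alignments that were not unique. These and the other summary lines (5 per column) stayed out of library totals.

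TMM factors came from edgeR 4.0.16 in R 4.3.3, and all else from Python 3.11.15 with scipy 1.17.1. The spread that edgeR's test needs cannot be estimated from 1 library per genotype, so no p-value is given. The study's NOISeq-sim calls rest on simulated libraries and were not used. The fold-change intervals and calls were tested on simulated counts with counting error alone, scaled by library totals. That test could not cover the TMM scaling or the spread between pools. A count of 0 was set to 3 for fold changes. Gene positions and promoters are RefSeq, GRCm38.p6. Named genes were all 10 members, the called genes with the highest and lowest fold change of each list (a 0 taken as 3 counts), and *Wnt5a*, *Ror2*, *Dvl2* and *Vangl2*; others were chosen after their values were seen. Members and lists were chosen with earlier results of these data known. Alternatives were 4 other scalings, other fold limits and other count minima.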

Additional observations from a re-analysis of the deposited data

How the results depend on the processing

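*Fzd1* was called higher under all 10 settings tried (the reported one and 9 alternatives), and *Fzd9* under all but the 3-fold limit, which left 1 Frizzled gene called. *Fzd3* was also not called with library totals alone or upper-quartile scaling, which gave 2 higher calls each. The number called lower was 0 as reported and 2 (*Fzd4* and *Fzd8*) with library totals alone, with intervals past 1.5-fold or with a point fold change of 2. In each scaling, 4 members had a fold change above 1 and 6 below 1. The 4 include *Fzd7*, which was at 1.00 (0.919 to 1.09) with library totals alone. With library totals alone, the summed fold change was 1.09 for all 10 genes and reversed to 0.845 without *Fzd1*, and 9 of the 10 single fold changes left their reported intervals; with the other 3 scalings none did. Without *Fzd1* in the denominator, the largest shares became 35.0% in *tuft* (*Fzd3*) and 28.0% in wild type (*Fzd2*). Of all tested genes, 2433 were called higher and 4172 lower as reported, 1425 of them higher with the 3-fold limit, and with at least 10 counts in each library 2264 higher and 1763 lower, since genes near 0 in *tuft* drop out. No paired analysis was possible because each genotype has 1 library. For the same reason no replicate could be left out, and the *tuft* counts of 70 to 1353 limit precision only within these libraries.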

Other observations

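The nearest tested protein-coding gene on each side of every Frizzled gene in GRCm38 was examined, a choice made after the values of the Frizzled genes were seen. Of these 20 flanking genes, 6 were called higher in *tuft* and 4 lower, beside 17.4% and 29.8% of all tested genes. Among the 6 flanking genes of *Fzd1*, *Fzd3* and *Fzd9*, 0 were called higher, 1 lower and 5 not called. *Cdk14*, a kinase gene 45.2 kb from *Fzd1*, had 226 counts in *tuft* against 290 in wild type. Its fold change of 2.27 (1.90 to 2.71) was without a call. *Baz1b*, 2.81 kb from *Fzd9*, had 2147 and 5165 counts, 1.21 (1.15 to 1.27), and *Nsun5*, on the other side of *Fzd9*, had none and 518. *Fzd5*, with a fold change of 0.899, lies between *Ccnyl1* and *Plekhm3*, both called higher at 2.40 (2.04 to 2.81) and 2.55 (2.08 to 3.11).

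The other members of the TET family were counted as well. *Tet2* had no count in *tuft* against 129 in wild type and was called lower, with an interval up to 0.0845. *Tet3* had 884 and 1760 counts, giving a fold change of 1.46 (1.35 to 1.59) without a call. Of all tested genes, 18.7% had no count in *tuft*. The paper reports no significant difference in *Tet2* or *Tet3*, either by its RNA-Seq or by qPCR.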
